A study of Mus musculus with 6 samples.

Results

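The transcription factors GATA1 and GATA2, and the proteins that bind DNA beside them, were examined in leukemic granulocyte-macrophage progenitors (L-GMP). The mice were labelled wild type or knockout for AMP-activated protein kinase (AMPK). The 10 members were fixed by gene symbol: Gata1, Gata2, Zfpm1, Tal1, Lyl1, Lmo2, Ldb1, Gfi1b, Klf1 and Nfe2. Each had its own row among the 47643 genes of the deposited table, whose values are FPKM, a fragment level scaled for transcript length and for a size set for each library. Total RNA of sorted L-GMP cells had been turned into Smart-seq2 and Nextera XT libraries, which do not mark the strand of origin. There were 3 libraries labelled wild type (WT) and 3 labelled as a double knockout (KO) of Prkaa1 and Prkaa2, which encode AMPK's catalytic subunits. Both groups were C57BL/6 mice and leukemic. The leukemia-driving gene, the age of the mice, the number of donors and the way the genes were deleted were not given in the sources used here. The labels do not say that replicates came from separate mice, and the spread behind each p-value is that between libraries, possibly only a technical one.

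GATA factors are zinc-finger proteins that bind the letters GATA in DNA. GATA2 is the form of stem cells, early progenitors and mast cells. GATA1 takes over as red cells and megakaryocytes mature and is also needed in mast cells and eosinophils. In erythroid cells GATA1 works in a complex with TAL1, an E protein, the bridging protein LMO2 and the scaffold LDB1, and it activates KLF1, GFI1B and the enzymes of haem synthesis. Granulocyte-macrophage progenitors give rise to neutrophils and monocytes, and GATA1 is usually low or silent in them.

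The libraries held between 11390343 and 16415932 reads that could be recovered from the FPKM values. The library sizes behind the FPKM values were 12710036, 18096883 and 14104154 in WT, above the recovered 11390343, 16415932 and 12897686 reads. In KO they were 12792358, 11400436 and 12937928, below the recovered 13872750, 12372343 and 14025385 reads. Read rates and floors below use these sizes, not the recovered totals. What this scaling adds to the changes was not tested. Prkaa1 was at 2.01, 2.20 and 1.80 FPKM in WT and at 1.11, 0.735 and 0.548 FPKM in KO (limma adjusted p = 0.00112), while Prkaa2 had 2 reads in all WT and 4 in all KO libraries, too few to check a label. The mean Prkaa1 level in KO was 39.8% of that in WT, so its message was lower but not absent. The FPKM values summed to between 463683.1 and 475654.5 in WT and between 649611.3 and 653818.6 in KO, so each change was also computed with the libraries rescaled to equal sums. The rescaling moved the median log2 difference over all tested genes from -0.02 to -0.45, and the share of called genes that were higher in KO from 48.5% to 27.8%. Among the markers used to gate such cells, Cd34 fell from 27.8 to 3.51 FPKM and Fcgr3, an Fc receptor gene, from 129 to 66.8 FPKM. Kit was low in both groups, at means of 0.250 and 1.43 FPKM, and the stem cell gene Ly6a was at 0.0567 and 0.270 FPKM. The neutrophil granule gene Mpo rose from 159 to 442 FPKM. Markers of other cell types summed to 2.13 to 2.83 FPKM in WT and 0 to 0.130 in KO for 11 endothelial and stromal genes, with Cdh5, Emcn, Col3a1 and Lepr at 0 in all 6 libraries. For 10 T cell genes the sums were 2.18 to 2.40 and 0.738 to 1.27 FPKM, with Cd3e, Cd3g, Cd8a, Cd8b1 and Trac at 0 throughout. For 10 B cell genes they were 85.01 to 92.3 and 56.0 to 58.2 FPKM, with Pax5 at 0 throughout; most of these sums was Cd79b, which fell from 54.6 to 2.48 FPKM, and Ighm, which rose from 33.7 to 54.4 FPKM. The part of such cells in the results was not tested.

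Gata1 turned from undetected to clearly expressed, and Gata2, Gfi1b, Klf1, Tal1 and Nfe2 rose with it, while Lmo2 fell sharply and Lyl1 slightly. Of the 10 members, 8 passed the filter of a mean of at least 1 FPKM, and 6 of these were called higher and 2 lower in KO (limma, adjusted p under 0.05 over all 9108 genes tested). The background was high: 38.0% of all tested genes were called higher and 40.4% lower, so a call in either direction was common. Gata1, Tal1, Gfi1b and Klf1 had WT means under 1 FPKM and passed the filter only through their KO level, so their place among the tested genes already required a difference. Zfpm1 and Ldb1 were under the filter, and their groups were compared by an exact permutation test, which cannot give a p below 0.1 with 3 against 3 libraries. In KO all 3 values lay above all 3 WT values for 7 members, below them for 2, and overlapped for Ldb1. Over the 21132 genes above 0 in any library those shares were 24.8% above and 30.8% below. RNA came from bulk cells, so fewer cells of a type and less RNA per cell cannot be told apart.

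**Figure D1:**
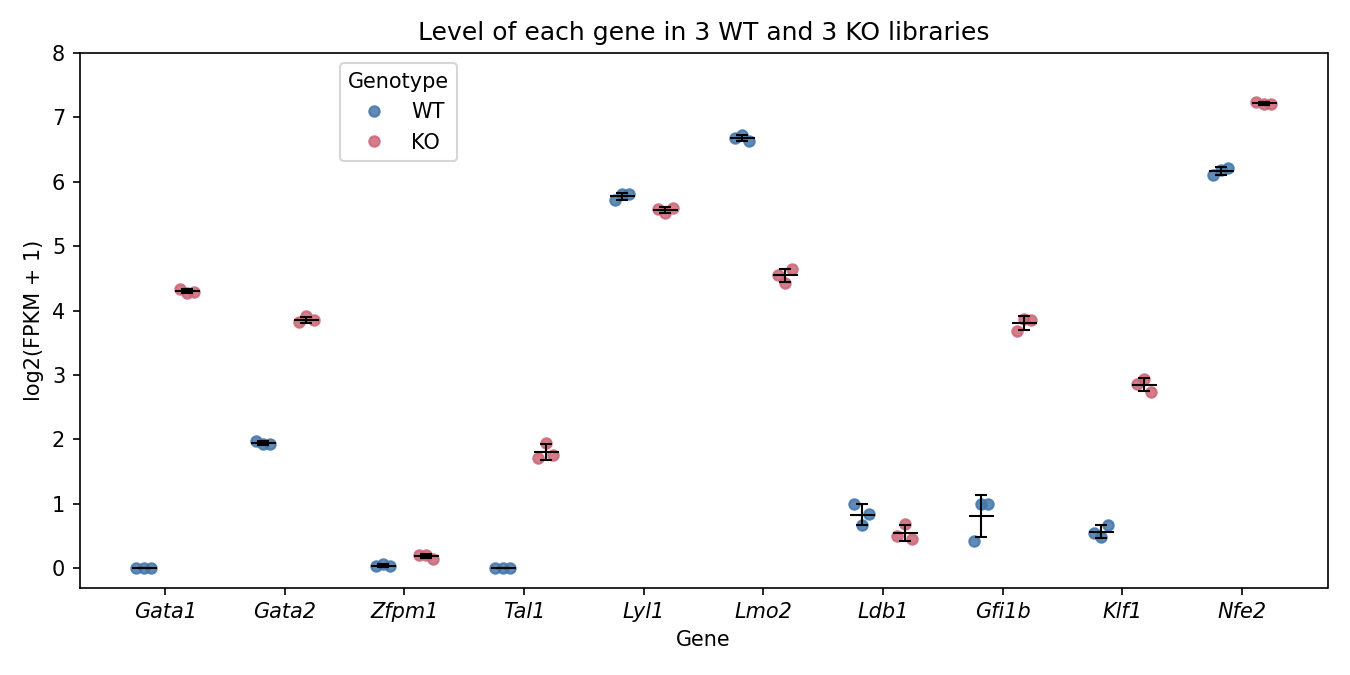
Level of each of the 10 members in the 6 libraries, as log2(FPKM + 1), with WT and KO points side by side and the mean ± SD of each group as black bars (n = 3). Gata1 and Tal1 lie at 0 in all 3 WT libraries, Lmo2 is highest in WT, and Nfe2 is highest in KO.

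Gata1 (ENSMUSG00000031162, mm10 chromosome X, 7959260 to 7978071, minus strand) was listed at 0 FPKM in all 3 WT libraries and at 19.3, 18.3 and 18.6 FPKM in the 3 KO libraries. No WT read was recovered for the gene, against 1698 KO reads. The groups did not overlap and the KO values lay close together, at 18.7 ± 0.498 FPKM (SD, n = 3). Set against the level that 3 reads over the WT group would give, 0.0274 FPKM, Gata1 was at least 684-fold higher in KO. The fitted difference was 4.30 (SE 0.06) on the log2(FPKM + 1) scale, with a limma adjusted p of 4.64e-09. For a gene at 0 in one group that fitted size depends on the added 1 and is no bound.

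Gata2 (ENSMUSG00000015053, chromosome 6, 88193891 to 88207032, plus strand) was already present in WT, at 2.93, 2.80 and 2.82 FPKM, and was at 13.1, 14.0 and 13.4 FPKM in KO. It rose 4.74-fold, from 2.85 ± 0.0672 to 13.5 ± 0.471 FPKM (log2 difference 1.91, SE 0.06, limma adjusted p = 9.50e-08). FPKM is a level per length, so both GATA genes can be compared within a library: in KO, Gata1 stood at 1.47, 1.31 and 1.38 times the Gata2 level. Of the pair, the WT libraries held only Gata2 reads. The summed level of both genes went from between 2.80 and 2.93 FPKM in WT to between 32.0 and 32.4 FPKM in KO. Gata3, the lymphoid relative, had 9 reads in all WT and 1 in all KO libraries.

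Zfpm1 (ENSMUSG00000049577, chromosome 8, 122282141 to 122337251, plus strand) encodes FOG1, the cofactor that binds the amino-terminal zinc finger of GATA1. It was near the limit of detection, at 0.0225, 0.0473 and 0.0202 FPKM in WT and 0.156, 0.150 and 0.110 FPKM in KO. The groups did not overlap (exact permutation p = 0.1, two-sided), but they rested on 5 WT and 18 KO reads. The KO read rate was 4.35 times the WT rate (95% Clopper-Pearson interval 1.56 to 15.0, counting error only). Its relative Zfpm2 had 1 read in each group. At these depths KO libraries held 18.7 FPKM of Gata1 beside 0.139 FPKM of Zfpm1.

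Tal1 and Lyl1 encode closely related basic helix-loop-helix proteins that bind DNA paired with an E protein, and they moved in opposite directions. Tal1 (ENSMUSG00000028717, chromosome 4, 115056426 to 115071755, plus strand) was listed at 0 in all WT libraries, with no read recovered, and at 2.28, 2.84 and 2.38 FPKM in KO on 405 reads. It was at least 164-fold higher in KO against the floor of 3 reads over the WT group (log2 difference 1.81, SE 0.09, limma adjusted p = 1.27e-06). Lyl1 (ENSMUSG00000034041, chromosome 8, 84701457 to 84704715, plus strand) was abundant in both groups, at 51.5, 55.3 and 54.9 FPKM in WT and 46.6, 44.6 and 47.3 FPKM in KO. It fell 1.17-fold without overlap of the groups (log2 difference -0.22, SE 0.04, limma adjusted p = 0.00169). The size of that fall moved to -0.69 with libraries rescaled to equal sums and to -0.12 with quantile normalization (limma adjusted p = 0.0203). Lyl1 therefore made up 94.0% to 95.3% of the summed message of the pair in KO, and the Tal1 to Lyl1 ratio there was 0.0490, 0.0638 and 0.0504.

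Lmo2 (ENSMUSG00000032698, chromosome 2, 103957986 to 103981878, plus strand), which joins the GATA factor to TAL1 or LYL1, was the most abundant member in WT. It was at 101, 105 and 98.1 FPKM in WT and at 22.6, 20.7 and 24.0 FPKM in KO. Lmo2 fell 4.53-fold, from 101 ± 3.44 to 22.4 ± 1.67 FPKM (log2 difference -2.13, SE 0.06, limma adjusted p = 6.05e-08). Its relative Lmo1, better known as an oncogene of T cell leukemia, moved the other way: 7.65, 7.90 and 8.22 FPKM in WT and 33.7, 31.3 and 28.0 FPKM in KO. Lmo1 rose 3.91-fold (log2 difference 1.84, SE 0.07, limma adjusted p = 3.48e-07). Per library, the ratio of Lmo1 to Lmo2 was 0.0756, 0.0753 and 0.0838 in WT and 1.49, 1.52 and 1.17 in KO (exact permutation p = 0.1, two-sided). Their summed mean went from 109 to 53.4 FPKM. Relative to Lyl1, Lmo2 stood at 1.97, 1.90 and 1.79 in WT and at 0.484, 0.463 and 0.507 in KO.

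Ldb1 (ENSMUSG00000025223, chromosome 19, 46031570 to 46045214, minus strand), the scaffold that pairs with itself and holds enhancers to promoters, was low in both groups. It was at 0.988, 0.586 and 0.792 FPKM in WT and 0.415, 0.612 and 0.367 FPKM in KO, and the groups overlapped (exact permutation p = 0.2, two-sided). Over 123 WT and 61 KO reads the KO rate was 0.600 times the WT rate (95% counting interval 0.434 to 0.822). Pprc1 lies on the opposite strand over 3.84% of the Ldb1 exons, so a small part of its reads could belong to either gene. Ldb2, its paralogue, had 1 read in all 6 libraries together.

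Gfi1b (ENSMUSG00000026815, chromosome 2, 28609450 to 28621982, minus strand), a zinc-finger repressor of red cells and megakaryocytes, was at 0.344, 0.996 and 1.01 FPKM in WT and at 11.8, 13.6 and 13.5 FPKM in KO. It rose 16.6-fold, from 0.783 ± 0.380 to 13.0 ± 1.03 FPKM (log2 difference 2.99, SE 0.16, limma adjusted p = 2.09e-06). WT replicate 1 was the lowest, and no WT library came near the KO values. Gfi1, the relative that serves neutrophils and stem cells, rose 2.21-fold, from 2.77 to 6.13 FPKM. In WT the mean of Gfi1 was thus above that of Gfi1b, and in KO the order was the opposite.

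Klf1 (ENSMUSG00000054191, chromosome 8, 84901928 to 84905291, plus strand) binds CACC boxes and switches on adult beta-globin and many other red cell genes. Its level was 0.462, 0.396 and 0.601 FPKM in WT and 6.27, 6.69 and 5.69 FPKM in KO, with no overlap. Klf1 rose 12.8-fold, from 0.486 ± 0.105 to 6.22 ± 0.50 FPKM (log2 difference 2.28, SE 0.09, limma adjusted p = 3.88e-07), on 33 WT and 353 KO reads.

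Nfe2 (ENSMUSG00000058794, chromosome 15, 103248212 to 103258403, minus strand) encodes the large subunit of NF-E2, a leucine-zipper factor of platelet formation and globin control that pairs with a small MAF protein. It was at 67.8, 72.1 and 73.3 FPKM in WT and at 150.1, 146 and 147 FPKM in KO. Nfe2 rose 2.08-fold (log2 difference 1.05, SE 0.03, limma adjusted p = 1.60e-07), and its log2 difference was 0.58 with libraries rescaled to equal sums. Its small MAF partners split: Mafk fell 2.28-fold, from 5.12 to 2.24 FPKM (limma adjusted p = 8.81e-06), and Mafg went from 12.3 to 18.2 FPKM (limma adjusted p = 3.86e-05), a rise whose call was lost when libraries were rescaled. Maff was at means of 1.38 and 1.29 FPKM and was not called. The ratio of Nfe2 to Mafk went from 13.3, 14.2 and 14.1 in WT to 62.9, 67.7 and 67.4 in KO.

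**Figure D2:**
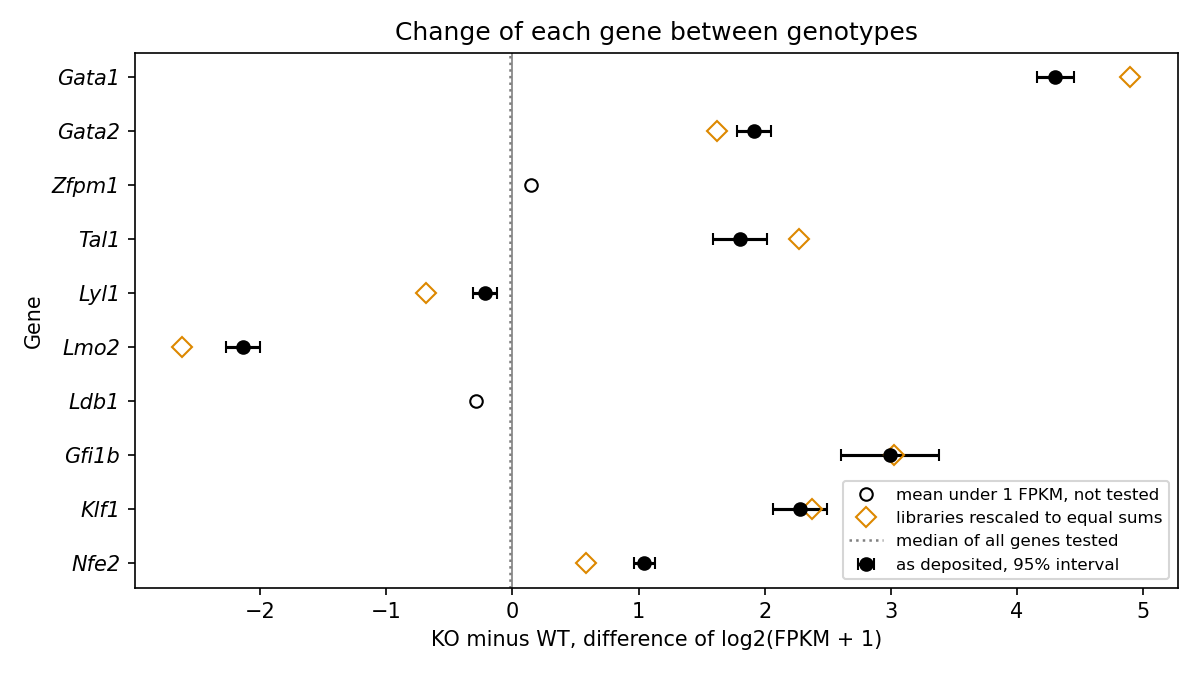
Difference between KO and WT for each member on the log2(FPKM + 1) scale, with its 95% interval (n = 3 per group), diamonds for the libraries rescaled to equal sums and open circles for Zfpm1 and Ldb1, which were not tested. The dotted line is the median of all tested genes at -0.02. Of the tested members, 6 lie above it, from 1.05 for Nfe2 to 4.30 for Gata1, and Lyl1 at -0.22 and Lmo2 at -2.13 lie below it. The untested Zfpm1 lies at 0.14 and Ldb1 at -0.29.

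The members' order by level was rearranged. In WT it ran Lmo2, Nfe2, Lyl1, Gata2, then Ldb1, Gfi1b and Klf1, whose neighbouring ranges overlapped, then Zfpm1, with Gata1 and Tal1 at 0. In KO it ran Nfe2, Lyl1, Lmo2, Gata1, then Gata2 and Gfi1b, which overlapped, then Klf1, Tal1, Ldb1 and Zfpm1. By mean level among all genes, Gata1 ranked 2694 in KO, Gata2 moved from rank 6380 to 3197, Nfe2 from 1183 to 648 and Lmo2 from 867 to 2418. Lyl1 stayed near its place, at rank 1455 in WT and 1538 in KO. Summed over the 10 members, the level was 231 FPKM in WT and 271 FPKM in KO.

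Because the raised members include genes known as targets of one another, the DNA before their starts was read for the letters those factors bind. The windows of 4 raised members are shown, in the direction of transcription, from RefSeq on build GRCm38.p6. They are Klf1 (chr8:84901732-84901928, plus strand), Gfi1b (chr2:28621983-28622232, minus strand), Tal1 (chr4:115056176-115056425, plus strand) and Gata1 (chrX:7967911-7968160, minus strand). Capitals mark 3 kinds of match on either strand. The GATA motif was written AGATAA or TGATAA. The E-box that TAL1 prefers was written CAGATG. The CACC box of KLF1 was written CACACCC. None of the matches overlapped.
Klf1: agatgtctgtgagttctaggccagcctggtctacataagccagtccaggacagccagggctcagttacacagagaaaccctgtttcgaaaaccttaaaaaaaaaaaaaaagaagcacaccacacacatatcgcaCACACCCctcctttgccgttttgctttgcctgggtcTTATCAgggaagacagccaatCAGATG
Gfi1b: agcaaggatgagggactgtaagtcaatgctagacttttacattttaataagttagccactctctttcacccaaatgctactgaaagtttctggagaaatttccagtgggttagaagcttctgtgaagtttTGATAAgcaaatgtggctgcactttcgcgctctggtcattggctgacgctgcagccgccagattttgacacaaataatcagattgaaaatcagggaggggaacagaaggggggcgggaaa
Tal1: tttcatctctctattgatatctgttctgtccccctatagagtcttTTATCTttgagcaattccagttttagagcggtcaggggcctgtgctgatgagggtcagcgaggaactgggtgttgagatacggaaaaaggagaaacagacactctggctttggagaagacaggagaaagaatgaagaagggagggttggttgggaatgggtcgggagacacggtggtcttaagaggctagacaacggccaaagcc
Gata1: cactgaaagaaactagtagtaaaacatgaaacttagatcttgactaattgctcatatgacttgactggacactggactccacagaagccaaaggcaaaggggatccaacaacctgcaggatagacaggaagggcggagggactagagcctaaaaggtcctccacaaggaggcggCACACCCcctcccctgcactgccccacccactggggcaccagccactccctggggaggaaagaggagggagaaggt
The Klf1 stretch stops at the first base of the longer GENCODE transcript, 54 bases before the RefSeq start, and the Gata1 window precedes the RefSeq start inside a GENCODE intron of longer transcripts.

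RefSeq windows of 250 bases were found for 8 of the 10 members, 12 windows in all, and Lmo2 and Nfe2 had no entry. The Klf1 window held all 3 kinds of motif: CACACCC from 116 to 110 bases before the start, a GATA match written TTATCA from 80 to 75, and CAGATG from 59 to 54. Gfi1b had TGATAA from 120 to 115 bases before its start, and the first Tal1 window had TTATCT, the same motif on the other strand, from 205 to 200. The Gata1 window held CACACCC from 76 to 70 and no GATA match, and Lyl1, which fell, had a CACC box as GGGTGTG from 163 to 157. Ldb1, which overlapped between groups, had 2 GATA matches in the window of its innermost start. Gata2 and Zfpm1 held none of these motifs, and no member held CAGCTG, another E-box. Among all 32851 windows of the same length, a GATA match was present in 16.6%, CAGATG in 14.4%, CAGCTG in 13.0% and CACACCC in 6.93%. These are matches of letters, not measured binding sites. The Gata1 window had 2 CpG pairs, Klf1 3, Gfi1b 5 and the Tal1 windows 6 and 16. The windows of Gata2, also raised, had 22 and 24. Lyl1, which fell, had 5, the Ldb1 windows had 4, 22 and 40, and Zfpm1 had 28. The median over all windows was 6.

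The partners that share complexes with the members moved in both directions. Of 29 partner genes, 23 were tested, 13 of them were called higher and 8 lower, and 2 were not called. Of the 8, Tcf4 and Erg passed the filter only through their WT level. Among the 21 with both group means at least 1 FPKM, 13 were higher and 6 lower. Over all tested genes, 38.0% were called higher and 40.4% lower, and these shares are the background for the lists below too. Their median log2 difference was 0.26, beside -0.02 for all tested genes. With libraries rescaled to equal sums 6 were higher and 11 lower, and the median turned to -0.21, beside -0.45 for all tested genes. Over all 29 partners, with no filter, the median was 0.029, beside -0.012 for all genes with no filter. All 3 E protein genes, whose products pair with TAL1 and LYL1, were lower in every KO library. Tcf3 fell 2.22-fold, from 12.5 ± 0.879 to 5.63 ± 0.158 FPKM (limma adjusted p = 4.22e-06). Tcf4 fell 6.52-fold, from 3.11 to 0.476 FPKM (limma adjusted p = 1.50e-06). Tcf12, at means of 0.870 and 0.237 FPKM, was under the filter. Beside Lmo1 and Gfi1, the largest rises were those of Runx1, a core blood stem cell factor, 3.01-fold from 1.08 to 3.26 FPKM, and of Lmo4, another LIM-only bridge, 1.95-fold from 19.1 to 37.1 FPKM. The LDB1-binding protein genes Ssbp2 and Ssbp3 rose from 12.5 to 20.0 and from 1.32 to 2.80 FPKM. Ssbp4, the most abundant of the 3, was at 47.7 and 45.5 FPKM and was not called, but was called lower after rescaling (log2 difference -0.53). Erg, an ETS factor of stem cells, fell 3.48-fold from 2.09 to 0.600 FPKM, and Myb fell from 7.23 to 4.41 FPKM. Spi1, which encodes PU.1, the myeloid factor known to oppose GATA1, stayed high: 191 FPKM in WT and 228 FPKM in KO, a called log2 difference of 0.26 that became -0.21 after rescaling. Cbfa2t3, a corepressor of the TAL1 complex, went from 3.67 to 2.80 FPKM, and this call was lost without WT replicate 1 (log2 difference -0.27), KO replicate 1 (-0.28) or KO replicate 3 (-0.25). The CoREST gene Rcor1, a corepressor of GFI1B, went from 4.19 to 3.25 FPKM with a limma adjusted p of 0.0251. That call was lost in 4 of the 6 fits that left out a library, with log2 differences between -0.29 and -0.22.

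Among 44 listed red cell genes, 6 haem synthesis genes and several others rose. The list had 24 tested genes, of which 17 were higher, 4 lower and 3 not called, with a median log2 difference of 0.85. After rescaling, 14 were higher and 8 lower, and the median was 0.39; with no filter it was 0.41 over 40 genes. The largest rise was that of Car2, a carbonic anhydrase, which passed the filter only through its KO level. Car2 had 1 read in all WT libraries and 1666 in KO, where it stood at 17.3, 18.8 and 19.5 FPKM. The KO read rate was 2015 times the WT rate (95% counting interval 361 to 79639). Blvrb, biliverdin reductase B, rose from 14.8 ± 0.877 to 148 ± 3.90 FPKM and E2f2, a cell-cycle factor of erythroblasts, 6.61-fold to 13.8 ± 0.280 FPKM. Icam4, a red cell adhesion gene, rose from 2.88 to 16.8 FPKM, but all of its exons lie under an overlapping gene on the other strand. The haem synthesis genes Alad, Uros, Urod, Cpox, Ppox and Fech rose, by 1.79-fold for Urod to 3.74-fold for Cpox, and these 6 remained called higher after rescaling. Alas2, the erythroid enzyme of the first step, had 4 WT reads and no KO read. Adult globin messages were low: Hbb-bs went from 6.42 to 18.2 FPKM, Hbb-bt from 1.09 to 6.57 and Hba-a1 from 5.75 to 12.1. Near-identical globin copies can share reads, so the split between them is uncertain. The rise of Hba-a2, from 7.01 to 10.4 FPKM, lost its call after rescaling (log2 difference 0.08) and without WT replicate 2 (0.38).

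The listed genes of the red cell membrane and its skeleton did not share a direction. Gypc, glycophorin C, was called higher, from 2.82 to 4.31 FPKM (limma adjusted p = 0.00231), and lost that call after rescaling (log2 difference 0.12). Epb41, protein 4.1, was at 1.33 and 1.31 FPKM and was not called, but was called lower after rescaling (-0.35). Several others were far below the filter: Sptb, a spectrin gene, had 58 WT and 5 KO reads, the anion exchanger gene Slc4a1 2 and 13, Epb42 6 and 1, Ermap 13 and 1, and Ank1 1 and 0. Kel and Rhag were at 0 in all 6 libraries. The erythropoietin receptor gene Epor was at 0 in WT and at 0.769, 0.576 and 0.803 FPKM in the KO libraries, on 49 reads, and so at least 19.6-fold above the floor of 3 WT reads. The largest falls were those of the blood group gene Rhd, 6.04-fold from 8.35 to 1.38 FPKM, of the mitochondrial glycine carrier gene Slc25a38, 2.92-fold from 9.95 to 3.40 FPKM, and of the iron carrier gene Slc25a37, from 1.96 to 1.02 FPKM.

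Of 30 mast cell and basophil genes, 11 were tested, and 10 of these were higher and 1 lower. Of the 11, 5 passed the filter only through their KO level, so the median log2 difference of 2.57 over the 11 was set in part by the filter; over the 22 genes above 0 it was 0.82. Among the 22 listed genes above 0 in any library, all 3 KO values lay above all 3 WT values for 15. Over all 21132 genes above 0, that held for 24.8%, and the median log2 difference with no filter was -0.012. Prss34, a basophil and mast cell protease gene, was at 0 in WT and at 30.5, 29.8 and 28.7 FPKM in KO, a rise of at least 540-fold. Alox5, which starts leukotriene synthesis, rose 24.3-fold from 2.62 to 63.6 FPKM. Cpa3, the mast cell carboxypeptidase gene and a textbook GATA target, rose 23.3-fold from 1.07 to 24.8 FPKM. The histamine-making enzyme gene Hdc rose 8.17-fold from 3.16 to 25.8 FPKM. Of the genes for chains of the high-affinity IgE receptor, Fcer1a was at 0 in WT and at 2.19, 2.64 and 4.96 FPKM in KO, and Ms4a2, under the filter, was at means of 0.0747 and 1.87 FPKM. The chain shared with other Fc receptors, Fcer1g, rose 1.53-fold from 2030 to 3111 FPKM. The proteoglycan gene Srgn fell 2.13-fold from 438 to 206 FPKM. Genes that mark mature connective tissue and mucosal mast cells, Tpsb2, Cma1, Mcpt1, Mcpt2, Mcpt4 and Mrgprb2, were at 0 in all 6 libraries.

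Of 12 listed eosinophil genes, 5 were tested and these 5 were called higher. Of the 5, Prg2, Prg3 and Epx passed the filter only through KO, and Csf2rb and Cebpe, a granulocyte factor gene, are expressed in other myeloid cells too. The median log2 difference was 3.02 over the 5 and 0.98 over the 9 genes above 0. Prg2, the major basic protein gene, had 1 read in WT and 9305 in KO, where it stood at 315, 295 and 287 FPKM. Prg3, its relative, was at 0 in WT and 7.17 ± 1.23 FPKM in KO, and the eosinophil peroxidase gene Epx was at 0 in WT and 5.91 ± 0.892 FPKM in KO. Csf2rb, the shared receptor chain of IL-3, IL-5 and GM-CSF, rose 10.1-fold from 14.8 to 149.7 FPKM, and a close paralogue makes its reads uncertain. Il5ra, Siglecf and Ear1, other eosinophil genes of the list, were at 0 in all 6 libraries, and Ccr3 and Alox15 had 2 KO reads and 1 WT read. Ear2 and Ear6, relatives of Ear1, were under the filter but higher in every KO library. Ear2 had 1 WT and 25 KO reads, and Ear6 had 0 and 34. The summed level of the 12 genes was 98.9 to 104 FPKM in WT and 583 to 618 FPKM in KO, and that of the 30 mast cell and basophil genes was 2469 to 2544 and 3605 to 3727 FPKM. Most of the latter was Fcer1g, which other myeloid cells express too. Whether a share of cells of these kinds in the sorted samples carried the rise of Gata1 was not tested.

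Megakaryocyte and platelet genes gave no common direction. Of 24 listed, 7 were tested, 4 were higher and 3 lower, with a median log2 difference of 0.51, which was 0.18 after rescaling and 0.043 over the 16 genes above 0. Tbxas1 passed the filter only through KO and F2rl2 only through WT. Among the 5 with both group means at least 1 FPKM, 3 were higher and 2 lower. Cd9, a tetraspanin gene, rose 6.48-fold to 150.4 ± 2.96 FPKM. Tbxas1, thromboxane synthase, rose 15.8-fold from 0.281 to 4.43 FPKM, and Pf4, platelet factor 4, rose 2.38-fold from 5.53 to 13.2 FPKM. Nbeal2, a platelet granule gene, went from 2.41 to 3.87 FPKM and lost its call after rescaling (log2 difference 0.18). F2rl2, a thrombin receptor gene, was at 13.2, 14.8 and 15.5 FPKM in WT and at 0 in KO, at least 448-fold lower against the floor of 3 reads over the KO group. Plek, pleckstrin, fell from 5.09 to 1.27 FPKM, and Rgs18 from 20.6 to 10.8 FPKM. Itga2b, the early megakaryocyte integrin and a classic GATA1 target, was at 0 in WT and at 0.373, 0.338 and 0.128 FPKM in KO. The platelet glycoprotein genes Gp1ba, Gp1bb, Gp5 and Gp9 were at 0 in all 6 libraries. The summed level of the list was 71.1 to 72.7 FPKM in WT and 184 to 192 FPKM in KO. Most of the KO sum was Cd9, at means of 23.2 FPKM in WT and 150.4 FPKM in KO, so the higher sum is not a shared rise of the list.

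**Figure D3:**
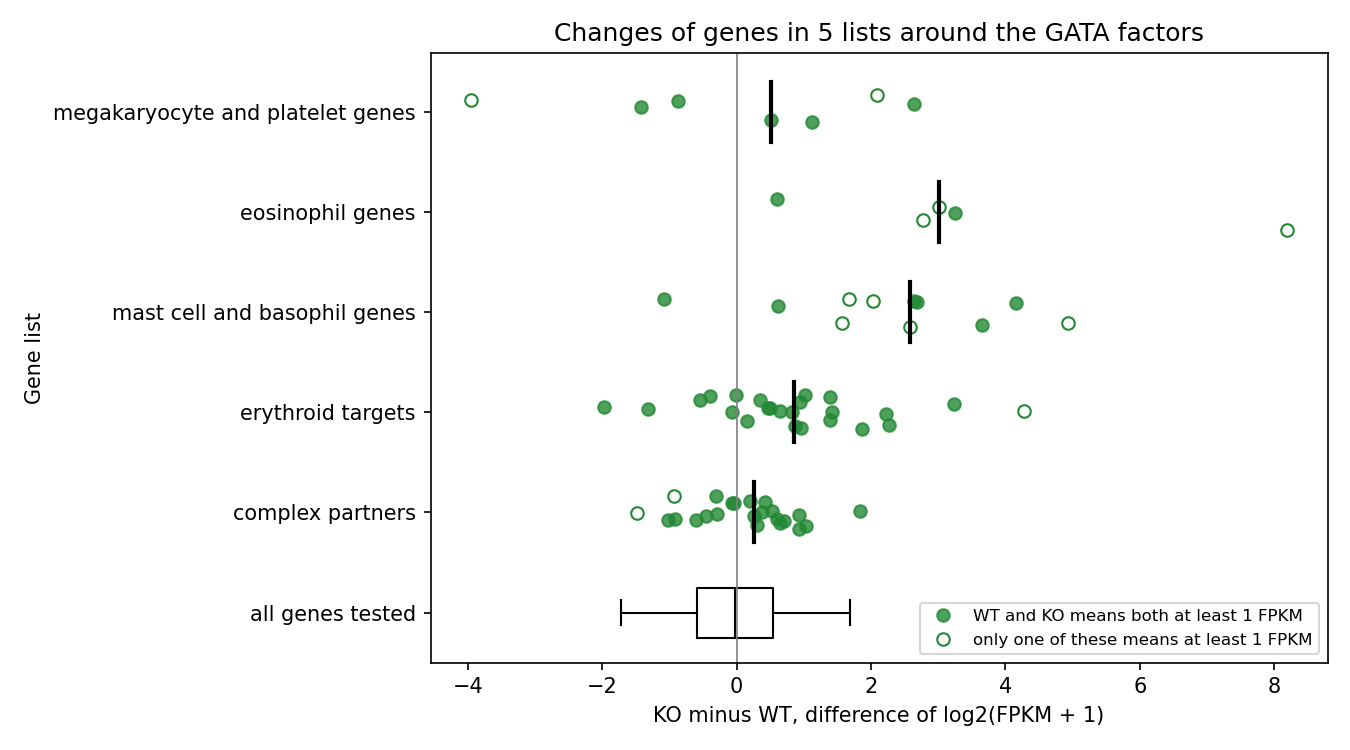
Difference between KO and WT on the log2(FPKM + 1) scale for each tested gene of 5 lists, filled where both group means were at least 1 FPKM and open where 1 was not, with the list median as a black bar; the box shows the quartiles of all tested genes and its whiskers the 5th and 95th percentiles. Medians over the tested genes run from 0.26 for complex partners and 0.51 for megakaryocyte genes to 0.85 for red cell genes, 2.57 for mast cell genes and 3.02 for eosinophil genes.

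The genes next to the members on the chromosome were examined as well. The nearest non-overlapping protein-coding gene on each side gave 20 neighbours, of which 16 were tested, 7 higher, 8 lower and 1 not called. Over all tested genes, 38.0% were called higher and 40.4% lower, so calls in both directions were common among any genes. Beside the 6 raised members there were 12 neighbours, 6 of them higher, 3 lower and 3 not tested. Of those not tested, Glod5 beside Gata1 had 22 WT reads and 0 KO reads. Dnajb8 beside Gata2 had 2 and 0, and Tsc1 beside Gfi1b had 284 and 395. The raised neighbour with the largest difference was Pdzk1ip1, 16953 bases beyond Tal1. It was at 0 in all WT libraries and at 7.56, 5.92 and 6.00 FPKM in KO, a rise of at least 173-fold (limma adjusted p = 2.11e-07). Pdzk1ip1 thus passed the filter only through KO. Stil, on the other side of Tal1 and known from deletions that fuse it to TAL1 in T cell leukemia, went from 1.41 to 2.01 FPKM and lost its call after rescaling. Stil included, the other 6 raised neighbours were called higher by 1.24-fold to 1.74-fold. After rescaling, Hdac6 beside Gata1 lost its call too, and Banp, Gcdh, Dnase2a and Copz1 changed sign. Beside Lyl1, which fell 1.17-fold, Trmt1 fell 3.31-fold from 15.4 to 4.64 FPKM and G430095P16Rik 5.05-fold from 20.3 to 4.02 FPKM. Beside Lmo2, Caprin1 fell from 7.80 to 4.92 FPKM, while Fbxo3 was at 11.2 and 10.9 FPKM and was not called, but was called lower after rescaling (log2 difference -0.49). Hnrnpa1, 1520 bases from Nfe2, fell 1.83-fold from 88.7 to 48.6 FPKM.

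**Figure D4:**
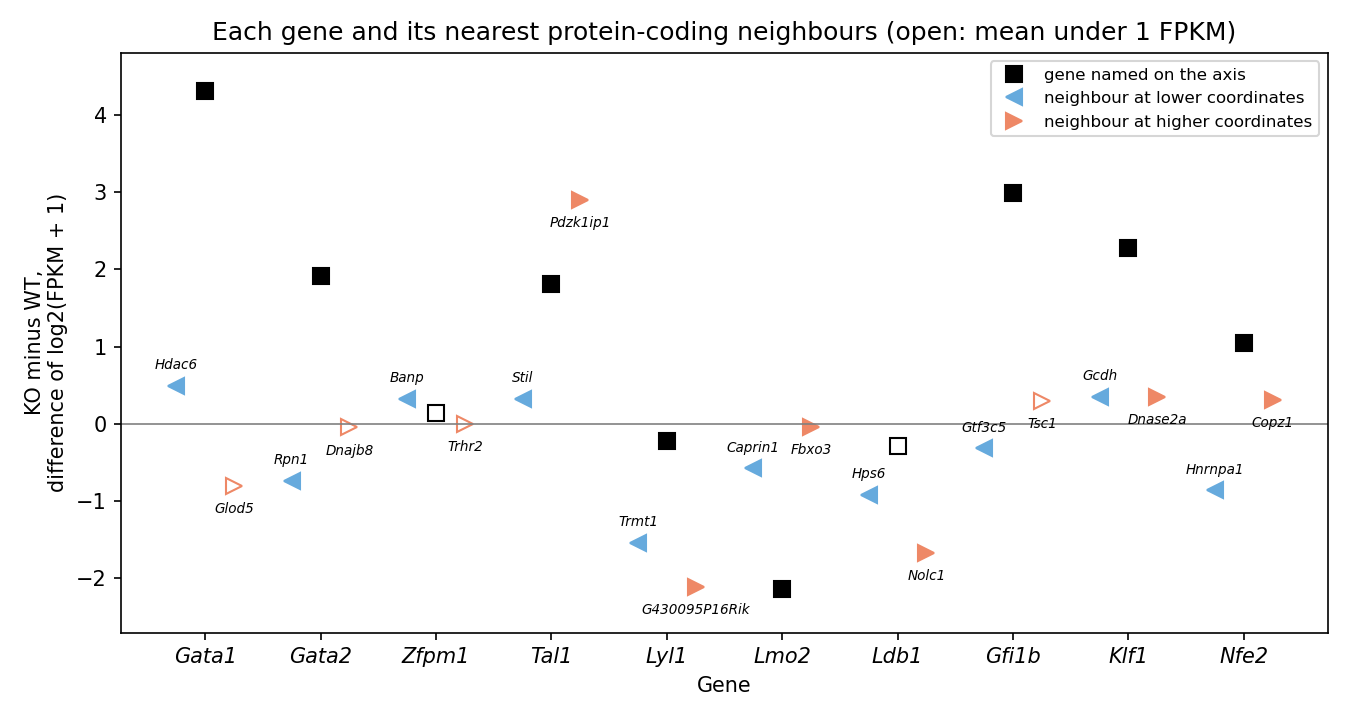
Difference between KO and WT on the log2(FPKM + 1) scale for each member (black squares) and its nearest protein-coding gene at lower (blue triangles) and higher coordinates (orange triangles), with open symbols for genes under the filter, which were not tested. Pdzk1ip1 beside Tal1, at 2.90, lies with the raised members, while the other 6 raised neighbours lie below 0.5.

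Gata1 was among the highest in KO of the genes listed at 0 in WT. In the table, 2610 genes were at 0 in all 3 WT libraries and above 0 in KO, and 181 of them had a KO mean of at least 1 FPKM. Gata1 ranked 5 among them by KO level, after Rab38 at 57.0 FPKM, Prss34, the short segment Ighd2-7 at 24.3 FPKM on 15 reads, and AW112010 at 19.6 FPKM. Tal1 ranked 69. In the other direction 4064 genes were at 0 in all KO libraries and above 0 in WT, 318 with a WT mean of at least 1 FPKM. By Euclidean distance in log2(FPKM + 1) over the 6 libraries, the genes nearest to Gata1 were AW112010 (0.145), Car2 (0.171) and Hmgn3 (0.270). Those nearest to Gata2 were Cd200r1 (0.281), Sepp1 (0.347) and 2810408I11Rik (0.348).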

How the data were processed

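The authors deposited 1 table of FPKM values per gene for the 6 libraries. Per the submitters' processing notes, STAR 2.5.3a, DESeq2 1.18.1, CASAVA, bcl2fastq and build mm10 were used; the counting tool, annotation and strand setting were not given in the sources used here. Members and gene lists were chosen with earlier results of these data known. The filter was a mean over the 6 libraries of 1 FPKM or more; the values were tested as log2(FPKM + 1) with limma 3.58.1 (trend, R 4.3.3), two-sided, with Benjamini-Hochberg adjustment and a threshold of 0.05; fold changes so fitted understate low genes. The procedure was tested on simulated data. Whole reads (tolerance 0.001) were recovered from FPKM with GENCODE M21 exonic lengths for 16481 of 21132 genes above 0, Klf1 and Ldb1 not among them. For 4650 genes, those 2 included, a length was searched and the smallest whole-read solution was used, so their read numbers are lower estimates. Reads carried no molecular identifiers, so intervals and floors cover counting error only. Of each list, the 4 largest called rises and 3 largest called falls were named, beside partners, neighbours and genes singled out for their role after values were seen. Alternatives were another pseudocount, other filters, rescaling, quantile normalization, limma-voom on recovered reads, the replicate block and leaving out each library. The labels name no pairing and same-numbered libraries did not deviate together (correlations 0.0095, -0.0118 and -0.0166), so no pairing was used. With 3 libraries per group, such correlations cannot show whether same-numbered libraries were prepared together.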

Additional observations from a re-analysis of the deposited data

How the results depend on the processing

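All 8 tested members kept their direction and their call under each alternative that tested them (13 each, and 12 for Tal1 and Klf1, which a minimum of 5 FPKM dropped). Members called were 6 higher and 2 lower in every fit that left out a library, 7 higher with no filter and 4 higher with the minimum of 5 FPKM. Over all genes, against 3464 higher and 3676 lower as reported, 2072 were higher and 2383 lower with that minimum, 4663 higher and 5769 lower with no filter, and 2069 higher and 5376 lower with libraries rescaled to equal sums. Leaving out each library gave 3305 to 3380 higher and 3507 to 3603 lower genes. With the replicate number as a block, 3420 genes were higher and 3620 lower, and no member's call changed. The labels do not say that the numbers pair the libraries. Rescaling reversed Spi1 (-0.21), Hdac1 (-0.26), Chd4 (-0.092), Banp (-0.099), Gcdh (-0.098), Dnase2a (-0.085) and Copz1 (-0.16). It lowers the ratio of KO to WT for every gene present in both groups, but also makes the added 1 smaller beside the values. The log2 differences of Gata1, Tal1, Gfi1b and Klf1 grew to 4.90, 2.27, 3.02 and 2.38. Those of Gata2 and Nfe2 shrank to 1.62 and 0.58, and those of Lyl1 and Lmo2 became -0.69 and -2.62. Rescaling also gave lower calls to Ssbp4 (-0.53), Fbxo3 (-0.49) and Epb41 (-0.35), which were not called as reported. Ssbp4 became 0.037 under quantile normalization. Maff, not called, became 0.029 with limma-voom and ran from -0.23 to 0.062 as libraries were left out, above 0 without WT replicate 1, WT replicate 3 or KO replicate 2; Fbxo3 ran from -0.11 to 0.036, above 0 without KO replicate 3, and Epb41 from -0.089 to 0.045, above 0 without WT replicate 1, KO replicate 1 or KO replicate 2. The cause was not tested. The minimum of 5 FPKM tests fewer genes and left 8 higher and 3 lower partners, 2 lower red cell genes, 6 higher mast cell genes, 3 higher eosinophil genes and 2 higher megakaryocyte genes, of which 7 were higher with no filter. Depth limits Zfpm1, Ldb1 and the red cell membrane genes with few reads.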
